A study of Homo sapiens with 4 samples.

Results

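The EGR, NR4A and IER genes described here are 9 immediate early genes, EGR1, EGR2, EGR3, EGR4, NR4A1, NR4A2, NR4A3, IER2 and IER3. All probes that the array design names for one of them were taken, which gave 12 probes of the 58185 analysed and 9 of the 43311 gene names. Levels were read from 4 one-colour arrays of total RNA, each with its own line and treatment. The MDS-L line was established from myelodysplastic syndromes (MDS). Its derivative MDS-L/CDA was transduced with CDA, the gene of cytidine deaminase, which inactivates 5-azacytidine (AZA). Each line was grown with vehicle on 1 array and with AZA on another. AZA is incorporated into nucleic acids and traps DNA methyltransferases, so that DNA methylation is lost as cells divide. Treatment lasted 72 h, AZA was given at 1 μM, and the vehicle was DMSO at 0.1%. According to the labels all cultures shared a medium with FBS at 10%, 2-mercaptoethanol at 50 μM and the cytokine IL-3 at 20 ng/mL. The titles write the dose in mM. On 2 arrays, AZA-treated MDS-L and vehicle-treated MDS-L/CDA, the treatment field names the opposite treatment, whereas titles, source names and descriptions give the groups used here. With 1 array per condition no difference could be tested, and every value compares single arrays.

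Immediate early genes are transcribed within minutes of a growth factor, cytokine or stress signal, from factors already present in the cell, and most of their transcripts are degraded quickly. MAP kinases phosphorylate ELK1 and related ETS factors bound with SRF at the CArG boxes of serum response elements, and CREB acts at cAMP response elements. EGR1 to EGR4 are zinc finger transcription factors that bind GC-rich sites, and EGR1 takes part in monocytic differentiation and in the quiescence of haematopoietic stem cells. NR4A1 to NR4A3 are orphan nuclear receptors, and the loss of NR4A1 and NR4A3 together leads to myeloid leukaemia in mice. IER2 is a nuclear protein induced by growth factors, and IER3 is a small membrane-associated protein that modulates ERK signalling and apoptosis.

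EGR1 is shown first because it changed most with AZA among the members, followed by NR4A3 and IER2, the other members well above background on at least 1 array that have an entry in the RefSeq promoter table (GRCh38.p14). Each sequence is the 250 bases before the annotated start, written 5′ to 3′ on the plus strand, and capitals mark CArG boxes and the core TGACG of the cAMP response element, read on either strand, as TGACG or CGTCA. EGR1 lies at chr5:138465229-138465478, NR4A3 at chr9:99821635-99821884 and IER2 at chr19:13150161-13150410.
EGR1: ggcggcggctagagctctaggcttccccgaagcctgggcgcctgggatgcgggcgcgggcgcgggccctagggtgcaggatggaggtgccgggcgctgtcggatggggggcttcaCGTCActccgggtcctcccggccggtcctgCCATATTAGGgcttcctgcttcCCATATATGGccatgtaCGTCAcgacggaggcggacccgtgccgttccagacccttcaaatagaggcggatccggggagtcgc
NR4A3: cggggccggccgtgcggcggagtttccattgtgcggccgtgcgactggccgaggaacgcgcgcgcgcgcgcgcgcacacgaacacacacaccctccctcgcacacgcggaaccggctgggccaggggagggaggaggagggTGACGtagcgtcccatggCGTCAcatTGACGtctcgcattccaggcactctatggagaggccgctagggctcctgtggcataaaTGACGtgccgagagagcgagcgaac
IER2: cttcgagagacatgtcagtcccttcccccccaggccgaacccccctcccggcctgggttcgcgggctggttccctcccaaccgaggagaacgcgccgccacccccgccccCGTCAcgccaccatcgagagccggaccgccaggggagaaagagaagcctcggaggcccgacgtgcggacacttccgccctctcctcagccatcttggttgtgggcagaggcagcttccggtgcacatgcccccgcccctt

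The EGR1 sequence held 2 CArG boxes, CCATATTAGG at 105 to 96 bases before the start and CCATATATGG at 83 to 74 bases before it. A CArG box was found in 1.29% of all 35116 promoter windows of the table, each of which also takes in the first 50 bases after the start. TGACG occurred 4 times in the NR4A3 sequence, 2 times in EGR1 and 1 time in IER2, and 24.6% of all windows held it. The full element TGACGTCA, which contains TGACG, was found in 1.85% of all windows and in none of the 9 windows listed for 6 of the 9 members. Nor did any of them hold AAAGGTCA, the site an NR4A monomer binds (1.22% of all windows), or TATAAA (11.5%). The EGR site GCGNGGGCG occurred in the EGR1 window and in 1 of the 3 EGR2 windows, against 9.43% of all windows. Of the 3 EGR2 windows another held 1 CArG box. CG dinucleotides, the sites of DNA methylation, numbered 33 in the EGR1 window, 38 in NR4A3, 27 in IER2 and 35 in EGR4, where the median over all windows was 14. The other windows ranged from 5 in 1 of the NR4A1 windows to 41 in 1 of the EGR2 windows. Methylation was not measured on these arrays, and a match of letters describes the window alone.

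The arrays carried a progenitor pattern, with 11 of 12 haematopoietic progenitor markers (CD34, KIT, CD33 and PTPRC among them) well above background on all 4 arrays and MPO on none. The scanner software called 32.6 to 36.5% of the probes well above background. The lowest signal with that flag was 9.98 to 11.1, and below it a probe gives an upper bound only. No spot was saturated. The SD between the spots of replicated probes on one array was 0.20 to 0.30 on the log2 scale, which covers neither hybridization nor culture. The probe for CDA gave signals of 4.48 to 5.53, on no array well above background, so the transduced gene was not seen with this probe, and whether the probe lies inside the transduced sequence was not examined. Markers of mast cells or basophils moved with AZA as well. The summed level of the 6 markers, in units of the 75th percentile of each array, was 37.7 with vehicle and 266 with AZA in MDS-L cells, and 15.7 and 69.1 in MDS-L/CDA cells. Between 4 and 6 of them were well above background, and AZA was at least 2-fold above vehicle for 6 of 6 in the parental line and 5 of 6 in the derivative. Erythroid markers summed to 4.82, 27.1, 4.44 and 6.13 in the same order, megakaryocyte markers to 11.2, 28.0, 15.0 and 26.3, monocyte or macrophage markers to 0.68, 1.30, 0.36 and 1.18, and lymphoid markers to 15.6, 14.5, 17.4 and 17.9. KIT and GATA2 of the progenitor list were at least 2-fold higher with AZA in both lines. In MDS-L cells the KIT signal was 26.4 with vehicle, and its AZA/vehicle ratio was 47.3. Within the erythroid list the members differed in MDS-L cells, with AZA/vehicle ratios of 11.4 for GATA1 and at least 49.9 for HBG1, but 0.64 for KLF1 and 0.72 for EPOR. The part of these changes in the results given here was not tested.

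Of the 9 members, EGR1, IER2, IER3 and NR4A3 were well above background on at least 1 array. IER2 and 1 of the 2 IER3 probes were well above background on all 4, EGR1 and the other IER3 probe on 3, and 1 of the 2 NR4A3 probes on 1. EGR2, EGR3, EGR4, NR4A1 and NR4A2 were not well above background on any array. In the plot of signals by array these 5 genes lie under the grey band that marks the lowest signal well above background.

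**Figure D1:**
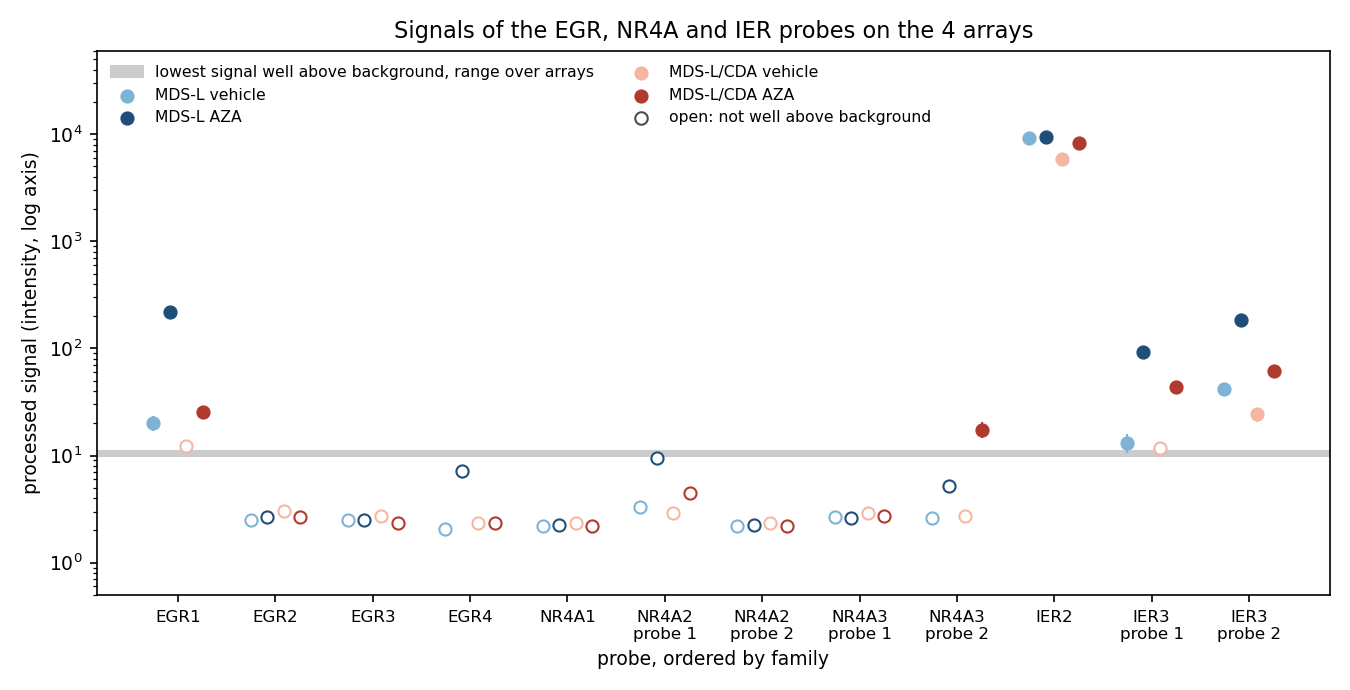
Processed signal of each of the 12 probes (log axis, intensity after background subtraction, before scaling between arrays), with 1 point per array. Filled points are well above background and carry the scanner's error of the spot, open points are not, and the grey band is the range over arrays of the lowest signal well above background. EGR1 and both IER3 probes were highest in AZA-treated MDS-L cells, whereas IER2 stayed between 5855 and 9474 on all 4 arrays.

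EGR1 was measured by 1 probe on chromosome 5 (137804891 to 137804950 of hg19). In MDS-L cells the signal, with the scanner's error of the spot, was 20.1 ± 3.23 with vehicle and 219 ± 22.0 with AZA. The MDS-L/CDA cells gave 12.2 ± 2.94 with vehicle, not well above background, and 25.4 ± 3.50 with AZA. The array of AZA-treated MDS-L cells thus stood far above the other 3. After each array was scaled to its 75th percentile, the AZA/vehicle ratio in MDS-L cells was 10.8 (log2 ratio 3.44 ± 0.27, scanner error of both spots). By this ratio EGR1 ranked 29 of the 15104 genes that both MDS-L arrays measured well above background. In MDS-L/CDA cells the computed ratio was 2.27 (log2 ratio 1.19 ± 0.40), against a vehicle signal not well above background. With another background correction, described below, the log2 ratio in these cells was 0.33. By the computed ratios, the log2 ratio was 2.25 ± 0.48 larger in MDS-L cells than in MDS-L/CDA cells. The scanner software called the vehicle signal in the derivative significant over background but not well above it. A lower vehicle level there would make the difference between the lines smaller. Under other ways of processing the difference ranged from 1.52 to 2.39, and it was not tested.

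IER3 was the other member that rose in both lines by the ratio threshold of 2. It has 2 probes on chromosome 6, one (30711576 to 30711635 of hg19, minus strand) upstream of the other (30711312 to 30711371) in the transcript. The downstream probe, the brighter one (probe 2 in the plots), gave 41.9 ± 4.75 with vehicle and 182 ± 18.4 with AZA in MDS-L cells, and 24.2 ± 3.48 and 61.2 ± 6.60 in MDS-L/CDA cells. Both AZA arrays were above both vehicle arrays. The AZA/vehicle ratio was 4.31 in MDS-L cells (log2 ratio 2.11 ± 0.22), which ranked 150 of 15104 genes, and 2.77 in MDS-L/CDA cells (log2 ratio 1.47 ± 0.26), which ranked 69 of 14137. The upstream probe (probe 1) gave 13.1 ± 2.66, 91.9 ± 9.55, 11.7 ± 3.07 and 43.9 ± 4.95 in the same order, and it was not well above background in vehicle-treated MDS-L/CDA cells. Its AZA/vehicle ratio was 6.96 in MDS-L cells, and the computed ratio was 4.11 in MDS-L/CDA cells (log2 ratio 2.04 ± 0.41). The 2 probes therefore gave the same direction in each line but differed in size. The difference between the lines in the log2 ratio (MDS-L minus MDS-L/CDA) was 0.64 ± 0.34 with the downstream probe. It was 0.76 ± 0.53 with the upstream one. That value rests on an MDS-L/CDA vehicle signal that was significant over background but not well above it.

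IER2, with a probe on chromosome 19 (13265586 to 13265645 of hg19), was the only member with a strong signal in vehicle. Its signal in MDS-L cells was 9140 ± 914 with vehicle and 9474 ± 947 with AZA, and in MDS-L/CDA cells it was 5855 ± 586 and 8224 ± 822. The 2 MDS-L arrays lay within each other's scanner error. The AZA/vehicle ratio was 1.03 in MDS-L cells (log2 ratio 0.041 ± 0.20) and 1.54 in MDS-L/CDA cells (log2 ratio 0.62 ± 0.20), under the threshold of 2 in both. In MDS-L cells the ratio fell below 1 when each array was scaled to its median (log2 ratio -0.50). IER2 ranked 5252 of 15104 genes in MDS-L cells and 983 of 14137 in MDS-L/CDA cells.

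NR4A3 has 2 probes on chromosome 9 that the annotation of the array assigns to different transcript variants. The probe at 102628985 to 102629044 of hg19 (probe 2 in the plots) gave 2.64 with vehicle and 5.18 with AZA in MDS-L cells, and 2.71 and 17.4 ± 3.01 in MDS-L/CDA cells. Among the 4 arrays it was well above background only on that of AZA-treated MDS-L/CDA cells. The increase with AZA in MDS-L/CDA cells was at least 1.72-fold, and the computed ratio of 7.04 rests on a vehicle signal below background. The other NR4A3 probe, at 102595751 to 102595810, gave 2.64 to 2.88, on no array well above background.

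The remaining members gave no measured ratio. EGR2 (chromosome 10, 64571850 to 64571909) gave 2.52 to 3.07 on the 4 arrays, EGR3 (chromosome 8, 22545964 to 22546023) 2.33 to 2.72, and NR4A1 (chromosome 12, 52453226 to 52453285) 2.18 to 2.35. EGR4 (chromosome 2, 73518051 to 73518077) gave 7.20 ± 2.25 in AZA-treated MDS-L cells and 2.06 to 2.36 on the other arrays. NR4A2 has 2 probes on chromosome 2. The one at 157182256 to 157182315 gave 3.31 ± 2.24 with vehicle and 9.52 ± 2.61 with AZA in MDS-L cells, and 2.89 ± 2.74 and 4.47 ± 2.59 in MDS-L/CDA cells, and the one at 157181727 to 157181786 gave 2.18 to 2.35. EGR4 and the first NR4A2 probe were thus brightest in AZA-treated MDS-L cells, where the scanner software called both significant over background but not well above it, so that no fold is given.

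Counted by the brightest probe of each gene, AZA was at least 2-fold above vehicle for 2 of the 3 members measured in MDS-L cells, EGR1 and IER3. Among all 17172 genes well above background on at least 1 MDS-L array, 9.78% were at least 2-fold higher and 7.12% at least 2-fold lower. For the derivative MDS-L/CDA, 3 of the 4 measured members had a computed ratio of at least 2, EGR1, IER3 and NR4A3. By the same computed ratio, 3.88% of 15393 genes were at least 2-fold higher there and 4.19% lower. No member was at least 2-fold lower with AZA in either line. The median log2 ratio of the measured members was 2.11 in the parental line and 1.33 in the derivative, and over all genes measured in the same pair it was -0.13 and 0.015. The median of the derivative takes in NR4A3 at its computed log2 ratio of 2.82, whereas its lower bound was 0.78 and thus under 2-fold. Both EGR1 and NR4A3 counted as measured in the derivative only through the AZA array. Their share in this count and median is therefore not independent of their AZA signal. With lower bounds in place of computed ratios, 2 members were at least 2-fold higher in the derivative, EGR1 and IER3. EGR1 could not drop out there, because its bound was its own computed ratio of 2.27 (log2 ratio 1.19 ± 0.40). With signal well above background required on both arrays, only IER3 was counted. With the study's rule of a ratio and a Z score of at least 2, the Z score being taken here within 10 bins of similar brightness, EGR1 (Z 3.76) and IER3 (Z 2.31) passed in MDS-L cells, where 4.27% of the genes passed. IER3 (Z 2.52) and NR4A3 (Z 3.08) passed in the derivative and EGR1 (Z 1.30) did not, where 2.10% of the genes passed. The result for EGR1 in the derivative depended on how the Z score was taken. It passed with a Z score from all probes, and it did not with the authors' value table.

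**Figure D2:**
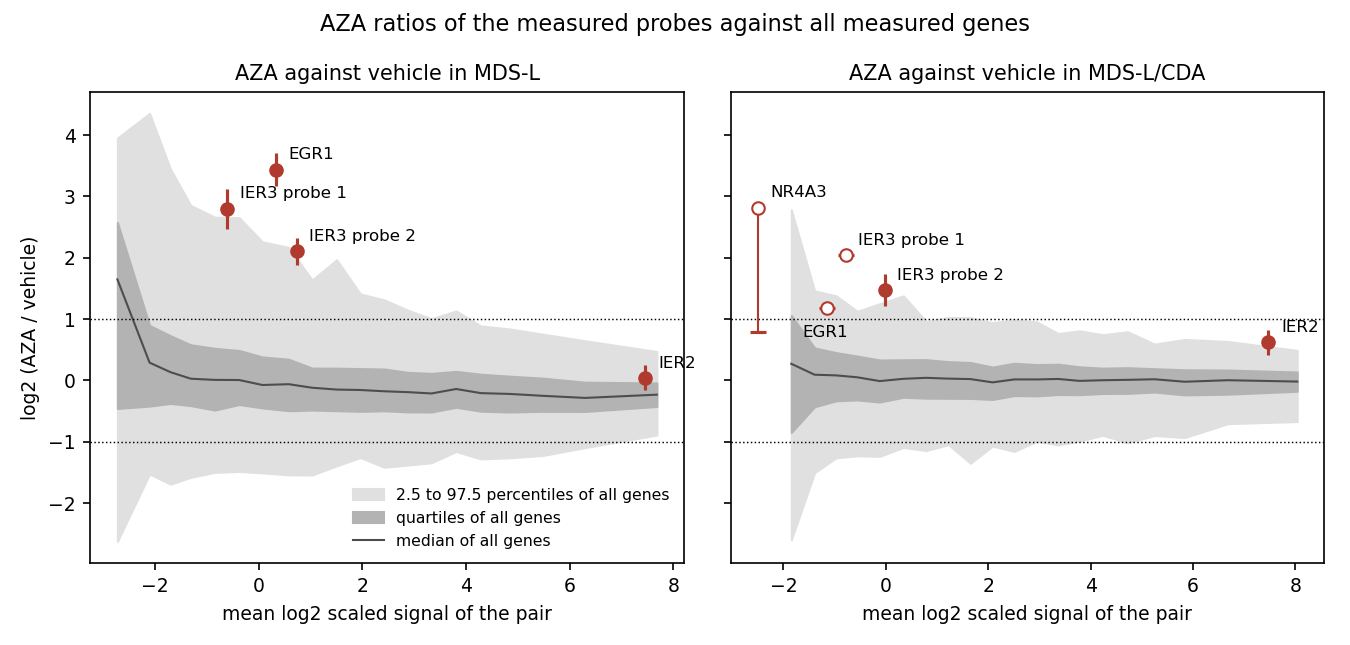
Log2 AZA/vehicle ratio against the mean log2 scaled signal of the pair for the member probes measured on at least 1 array (red), with the median, quartiles and outer percentiles of all measured genes by brightness (grey). Open points rest on a vehicle signal not well above background, with a line down to the lower bound where that is smaller. Bars are the scanner error, and dotted lines are 2-fold. EGR1 lay at 3.44 (MDS-L) and 1.19 (MDS-L/CDA), and IER2 at 0.041 and 0.62.

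The counts depended on the background correction. With normexp correction of the mean spot intensity and an offset of 50, which compresses the ratios of dim probes, EGR1 and IER3 were still at least 2-fold higher in MDS-L cells (log2 ratios 1.85 and 1.29), but 0 members were in MDS-L/CDA cells, with log2 ratios of 0.33 for EGR1, 0.58 for IER3 and 0.39 for NR4A3. In each of the 5 alternatives plotted, EGR1 and both IER3 probes had a log2 ratio above 0 in both lines.

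**Figure D3:**
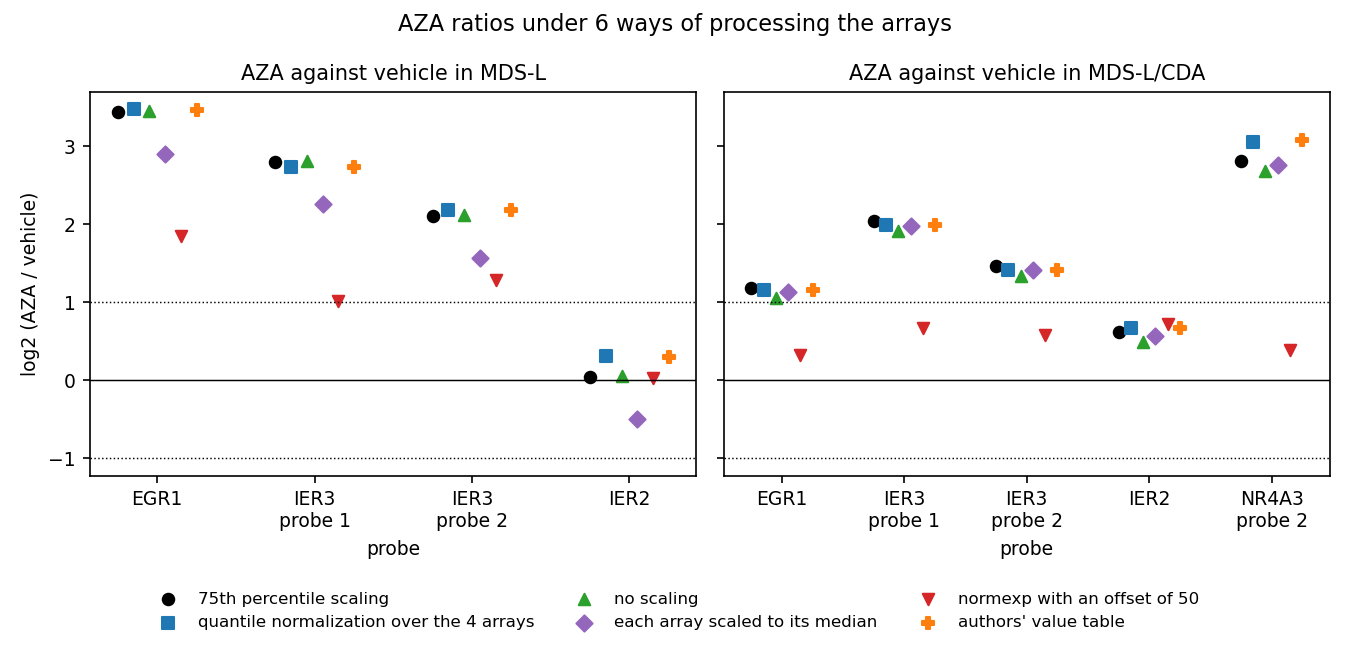
Log2 AZA/vehicle ratio of each measured member probe in MDS-L (left) and MDS-L/CDA (right) under scaling to the 75th percentile and 5 alternatives, with dotted lines at 2-fold. EGR1 ranged from 1.85 to 3.47 in MDS-L cells and from 0.33 to 1.19 in MDS-L/CDA cells, with the lowest value under normexp.

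The 2 lines were also compared under the same treatment, with arrays that are shared with the AZA comparisons. Without AZA, 0 of the 3 measured members differed at least 2-fold between MDS-L/CDA and MDS-L, where 2.37% of 16015 genes were higher and 4.53% lower in MDS-L/CDA. The MDS-L/CDA over MDS-L ratio was 0.83 for IER2 and 0.74 for the brighter IER3 probe. For the other IER3 probe, not well above background in MDS-L/CDA, the computed ratio was 1.15 (log2 ratio 0.20 ± 0.48), so that no direction is given. EGR1, also not well above background in MDS-L/CDA, had a computed ratio of 0.78 (log2 ratio -0.35 ± 0.42). That difference was within the scanner error, and its sign turned with normexp (log2 ratio 0.051). With AZA, EGR1 was 6.07-fold lower in MDS-L/CDA than in MDS-L cells (log2 ratio -2.60 ± 0.25), the lowest but 39 of 14542 genes. The brighter IER3 probe was 2.10-fold lower (log2 ratio -1.07 ± 0.21) and the other 1.48-fold lower, so that IER3 passed the threshold of 2 with one probe and did not with the mean of both. NR4A3 was at least 2.46-fold higher in MDS-L/CDA with AZA, and IER2 had a ratio of 1.23. Among 16739 genes measured in this pair 5.83% were at least 2-fold higher and 9.29% at least 2-fold lower in MDS-L/CDA. The direction for IER2 was lost under 3 of 5 alternatives, with a log2 ratio of -0.20 without scaling, -0.0033 with quantile normalization and -0.0011 in the authors' value table.

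Other immediate early genes were read from a list of 40 genes, all on the array. In MDS-L cells 37 were measured, of which 12 rose and 0 fell at least 2-fold with AZA, and the median log2 ratio was 0.51. One of the 12 was JUN, whose vehicle signal was below background and whose lower bound was 1.56-fold. The derivative had 36 measured, of which 8 were higher and 1 lower, and a median of 0.56. Over all measured genes the medians were -0.13 and 0.015, and 9.78% of the genes in MDS-L cells and 3.88% in the derivative were at least 2-fold higher. Among genes well above background on both arrays of a pair, the largest increases in MDS-L cells were in TRIB1 (6.85-fold), a pseudokinase that promotes degradation of C/EBPα, and FOS (6.21-fold), a subunit of AP-1. In MDS-L/CDA cells they were in SGK1 (3.95-fold), a serum- and glucocorticoid-induced kinase, and BTG2 (3.46-fold), an antiproliferative gene induced by p53, whereas ARC had a ratio of 0.40. RGS1, a regulator of G protein signalling named here after its value was seen, was not well above background with vehicle in this line. Its computed AZA/vehicle ratio there was 4.68, above that of SGK1. There FOS had a ratio of 2.66. EGR1 had a larger AZA/vehicle ratio in MDS-L cells than any gene of this list measured in both lines, as the plot of both lines shows. JUN, measured in MDS-L cells only, is not in the plot. Its computed ratio was 7.20, and with a vehicle signal below background it cannot be ranked against EGR1.

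**Figure D4:**
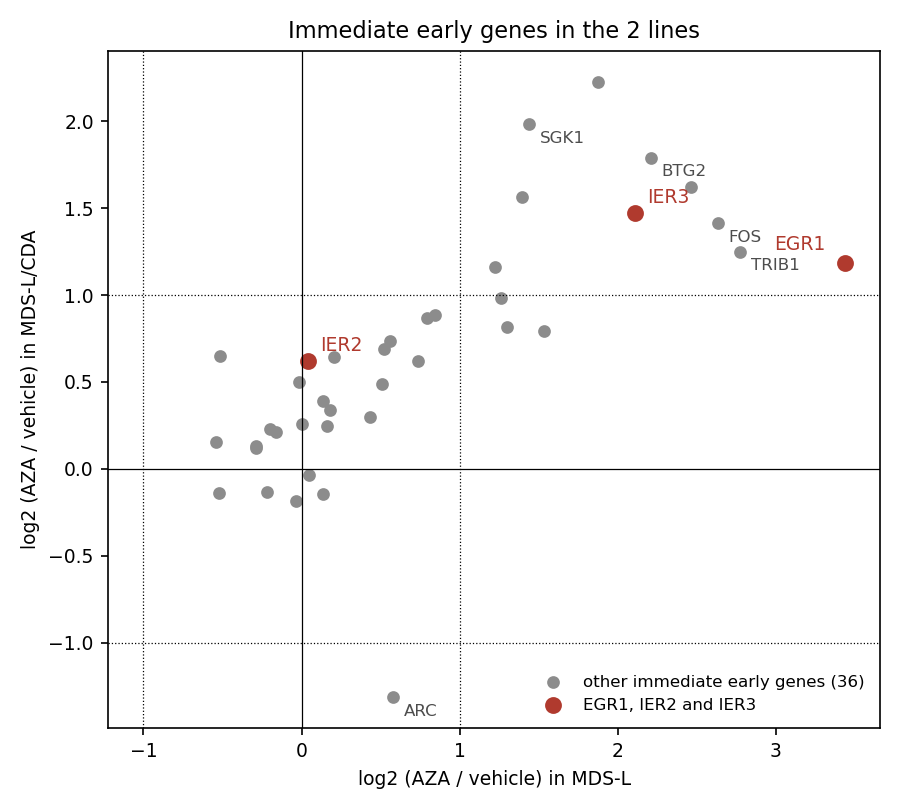
Log2 AZA/vehicle ratio in MDS-L (x axis) against MDS-L/CDA (y axis) for the 36 other immediate early genes measured in both lines (grey) and for EGR1, IER2 and IER3 (red), 1 brightest probe per gene, with dotted lines at 2-fold. Ratios against a vehicle signal not well above background are drawn at their computed value. EGR1 lies farthest to the right, and IER2 near 0 in MDS-L cells.

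Genes that act upstream of the members or with them were read from 3 further lists. The first held 17 transcription factors and coactivators, those of serum and cAMP response elements together with MEF2A, MEF2C and MEF2D. All were measured, and 0 were at least 2-fold higher or lower in MDS-L cells (median log2 ratio 0.008). With AZA in MDS-L/CDA cells, ELK3, an ETS factor that partners SRF, had a ratio of 2.04 and CREBBP, a histone acetyltransferase, of 0.33 (median of the list 0.17). In MDS-L cells their ratios were 1.94 and 0.69. The MDS-L/CDA signals of ELK3 with vehicle (14.9) and CREBBP with AZA (13.5) were near the lowest well above background. Among the 15 kinases and small GTPases of the MAPK cascade, RPS6KA4 had a ratio of 0.34 in MDS-L cells and RPS6KA3 of 0.45 in MDS-L/CDA cells, both of which encode kinases downstream of ERK, and 0 were at least 2-fold higher. The medians were -0.16 and 0.043. Of the 12 measured partners and corepressors, which include the EGR corepressors NAB1 and NAB2 and the RXR partners of the NR4A receptors, 0 passed 2-fold in either line (medians 0.14 and 0.085). NAB2, itself a known target of EGR1 and named here after its value was seen, had an AZA/vehicle ratio of 0.92 in the parental line and 1.04 in the derivative.

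The genes most like IER3 over the 4 arrays were sought among 13962 genes well above background on all of them, by the root mean square difference of log2 signals centred on the mean of each gene. Names that are probe, transcript or locus identifiers, or that start with lnc or Q, were passed over. The numbers of genes given here and for EGR1 still include them. The nearest of the other genes were ESAM, an endothelial and platelet adhesion molecule (0.083), REEP2 (0.091) and DHRS2, a short-chain dehydrogenase (0.096). ESAM gave signals of 31.6 with vehicle and 132 with AZA in MDS-L cells, and 19.5 and 51.5 in MDS-L/CDA cells. No EGR or NR4A member was well above background on all 4 arrays. For EGR1 the search was therefore made, as a choice after its values were seen, among 343 genes well above background on the same 3 arrays, and it gave FAM132A (0.11), PPBP, a platelet chemokine (0.24), and PTH2 (0.31). PPBP gave 23.5, 308, 11.0 and 32.1 in the same order. With 4 arrays such likeness is a description of level.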

How the data were processed

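RNA of both lines was hybridized to 4 one-colour (Cy3) Agilent arrays of 60-base probes on 1 slide, so that slide does not separate the groups. The authors deposited scanner output of Feature Extraction 10.7.1.1, with intensity per spot after background subtraction and detrending and without normalization between arrays, and a value table of intensity that looks quantile normalized (not described in the sources used here). Control spots and flagged outlier spots were dropped, which removed 16 probes. Each array was scaled to its 75th percentile (intensity 52.5 with vehicle and 52.9 with AZA in MDS-L cells, 40.8 and 37.3 in the derivative) on the log2 scale, and repeated spots were averaged. The gene value was that of its brightest probe. A gene was counted as measured when well above background on at least 1 array of a pair, and as changed at a ratio of 2 with the brighter array well above background. Where 1 array was not well above background, the fold is a lower bound taken from its own signal or, if higher, from the dimmest probe well above background there. A fold taken from its own signal equals the computed ratio and is a bound only within the scanner error. The scanner error is the software's error model for a spot. Probes are placed on hg19 as the files give them, and promoters are those of RefSeq.

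The members and lists were chosen with earlier results of these data known. The text names all 9 members, of each list and line up to 2 largest increases and decreases among genes well above background on both arrays, and the genes nearest in pattern. Alternatives were quantile normalization, no scaling, median scaling, normexp, the value table, other uses of background flags and probes, other Z scores and a ratio of 1.5. Python 3.11.15, numpy 2.4.6, pandas 2.3.3, matplotlib 3.10.9, R 4.3.3 and limma 3.58.1 were used. The number of arrays limits the precision.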

Additional observations from a re-analysis of the deposited data

How the results depend on the processing

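The count of members at least 2-fold higher with AZA in MDS-L cells was 2 under all alternatives. In MDS-L/CDA cells it was 3, against 0 with normexp and 1 when signal well above background was required on both arrays. It was 2 with lower bounds in place of computed ratios, an alternative chosen after seeing the data. EGR1 could not change under that alternative, since its bound equals its computed ratio. Under normexp 0.44% of all measured genes were at least 2-fold higher in MDS-L/CDA cells. For MDS-L/CDA against MDS-L with AZA, 1 member was higher, against 0 with normexp or when both arrays had to be well above background, and 2 were lower, against 1 with normexp, with the mean of all probes of a gene and with the mean of its probes well above background. Under normexp 0.77% of all measured genes were at least 2-fold higher and 2.71% lower in that pair. The difference between the lines in the log2 AZA ratio was 2.25 for EGR1, whose vehicle signal in the derivative was not well above background. It was 1.76 with median scaling, 1.52 with normexp and 2.39 without scaling. For IER2 the difference was -0.58, against -1.06 with median scaling, and for IER3 0.64, against 0.15 with median scaling. Median scaling lowered the median log2 ratio of all genes in MDS-L cells by 0.54, which moves every member alike. The cause of the other differences was not tested. No result with a fold of at least 2 changed direction under the alternatives run. No paired analysis was possible because each group has 1 array and no result comes from a test. Members with signals under about 10 give upper bounds, and 1 array per condition leaves the spread between cultures unmeasured.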
